A study of Homo sapiens with 12 samples.

Results

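The integrated stress response and the unfolded protein response were followed through 34 genes in THP-1 macrophages treated with MCHP (monocyclohexyl phthalate, a monoester of the plasticizer dicyclohexyl phthalate). The genes were taken by symbol from a fixed list covering the ATF4 pathway, serine and one-carbon enzymes, and sensors and targets of endoplasmic reticulum (ER) stress. All 34 were found among the 58907 genes of the count table, and all 34 were among the 15252 genes that passed the filter on low counts. The cells, (PPRE)-eGEP-THP-1, are derived from THP-1, a line of human monocytic leukaemia, and the labels do not expand PPRE. All cultures were first turned into macrophages: they spent 48 h with phorbol 12-myristate 13-acetate, at 25 ng/mL, and a further 24 h in fresh medium. Polarization lasted 24 h. The 4 groups, each with 3 libraries that the submitters call biological replicates, were MCHP-treated M1, DMSO-treated M1, MCHP-treated M2 and DMSO-treated M2 cultures. For M1, lipopolysaccharide was used at 100 ng/mL with 20 ng/mL of interferon gamma, and for M2, interleukin 4 and interleukin 13 were used at 20 ng/mL each. MCHP was given at 100 µM together with the polarizing agents. No unpolarized macrophages were analysed here, so a difference between M1 and M2 does not say which of them moved, and all cells derive from 1 line.

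In the integrated stress response, kinases phosphorylate the initiation factor eIF2 alpha, which lowers general translation while favouring translation of ATF4. ATF4 then raises genes of amino acid supply, one-carbon metabolism and, with CHOP (encoded by DDIT3), feedback and death. The unfolded protein response starts from the ER sensors PERK (EIF2AK3), IRE1 alpha (ERN1) and ATF6, and raises chaperones and the machinery that degrades misfolded proteins. In macrophages, bacterial ligands and cytokines are known to engage parts of both programmes. Much of this control acts on translation, phosphorylation, proteolysis of ATF6 and splicing of XBP1, none of which is read by counts per gene.

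The binding elements of these factors were looked for in the 250 bases upstream of each gene's start in RefSeq (GRCh38.p14), where 29 of the 34 genes had a sequence. The C/EBP-ATF response element (CARE, TGATGNAA, either strand), to which ATF4 binds with C/EBP partners, was found in 4 of 29 (13.8%), against 3.14% of all 35116 promoters. ERSE-II (ATTGG, 1 base, CCACG, either strand), an element of ATF6 and XBP1, was found in 3 of 29 (10.3%), against 0.0513% of all promoters. The longer element ERSE (CCAAT, 9 bases, CCACG) was found in XBP1 and CRELD2, 2 of 29 (6.90%), against 0.0740%. The UPRE (TGACGTGG) was found in HYOU1 alone, overlapping an ERSE-II match there, and in 0.612% of all promoters. The cyclic AMP response element (TGACGTCA) was found in PPP1R15A alone and in 1.65% of all promoters. The CCAAT box, which is also part of ERSE and, read on the other strand, of ERSE-II, was found in 21 of 29 (72.4%), against 32.0%. These matches are descriptions of letters and not of binding.

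Both genes called after MCHP, HERPUD1 (lower in M2) and ATF3 (higher in M1), carry a CARE match. Of the CARE genes, HERPUD1 alone also carries an ERSE-II. HERPUD1 and ATF3 are shown with the other CARE genes CHAC1 and ASNS and the other ERSE-II genes HYOU1 and SDF2L1. None of these others was called after MCHP. Matches are in capitals, 5′ to 3′ on the gene's strand. HERPUD1 is at chr16:56931956-56932045 (+), ATF3 at chr1:212565206-212565233 (+), CHAC1 at chr15:40953252-40953279 (+), ASNS at chr7:97872459-97872486 (-), HYOU1 at chr11:119057264-119057403 (-) and SDF2L1 at chr22:21642104-21642134 (+).
HERPUD1: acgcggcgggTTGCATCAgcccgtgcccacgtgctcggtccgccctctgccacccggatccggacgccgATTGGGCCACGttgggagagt
ATF3: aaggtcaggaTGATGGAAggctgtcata
CHAC1: tcccctgccgTTGCATCActcctgccag
ASNS: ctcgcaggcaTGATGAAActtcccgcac
HYOU1: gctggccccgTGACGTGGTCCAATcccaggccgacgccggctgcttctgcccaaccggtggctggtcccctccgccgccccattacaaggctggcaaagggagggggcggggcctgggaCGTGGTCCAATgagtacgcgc
SDF2L1: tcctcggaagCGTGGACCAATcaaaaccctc
HERPUD1 and CHAC1 share the same letters in the CARE, read on the opposite strand.

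The 12 libraries held 14352202 to 16871233 counts. Of 10 macrophage and monocyte markers, 9 exceeded 1 TPM in every group. The summed M1 markers were 2217 to 2592 TPM in the M1 groups and 125 to 188 TPM in the M2 groups, and the summed M2 markers were 1098 to 1201 TPM in the M1 groups and 5229 to 6691 TPM in the M2 groups. Summed T cell markers stayed at or below 0.322 TPM, B cell markers at or below 3.68 TPM and epithelial markers at or below 1.37 TPM. The 4 fibroblast markers summed to 45.0 to 53.6 TPM in the M1 groups and 10.7 to 14.1 TPM in the M2 groups, with 1 of them at 0 in each group. A mean over 1 TPM was reached by 1 of the 4 in M1 with MCHP and by 2 in each other group. Their part in the results between M1 and M2 was not tested. Under MCHP the summed macrophage and monocyte markers were 2920 to 2950 TPM in M1 and 1875 to 1990 TPM in M2. Under DMSO they were 3064 to 3279 TPM in M1 and 2248 to 2308 TPM in M2, and the part of this shift in the results was not tested. In bulk RNA, fewer cells of a type and less RNA per cell cannot be told apart.

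M2 DMSO replicate 1 stood apart from the other libraries of its group. Over the 34 genes, each log2 CPM value (counts relative to the TMM-scaled library size) was set against the average of its 2 companion libraries. The SD of these deviations was 0.251 in M2 DMSO replicate 1 and lay between 0.0783 and 0.163 in the remaining 11 libraries. It was below both other libraries of its group in 18 genes and above both in 14. The lowest deviations were in DDIT4 (-0.74), CEBPB (-0.61), CHAC1 (-0.41), SESN2 (-0.38), ATF5 (-0.35), TRIB3 (-0.32) and PCK2 (-0.32), and the highest were in NUPR1 (0.47) and PSPH (0.26). CEBPB, encoding the transcription factor C/EBP beta, had 377 CPM in that library and 574 and 575 CPM in the other 2. The share of mitochondrial transcripts was 3.23% in that library and 3.12% and 3.10% in the other 2. Values without it are given beside several of the results. M2 MCHP replicate 3, with the next highest SD (0.163), was below both other libraries of its group in 21 of the 34 genes and above both in 7. Shifts to one side were also seen in M1, at smaller SDs. M1 MCHP replicate 1 (SD 0.117) was above both others in 24 genes and below both in 4. M1 DMSO replicate 1 (SD 0.0984) was above both in 22 and below both in 5.

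**Figure D1:**
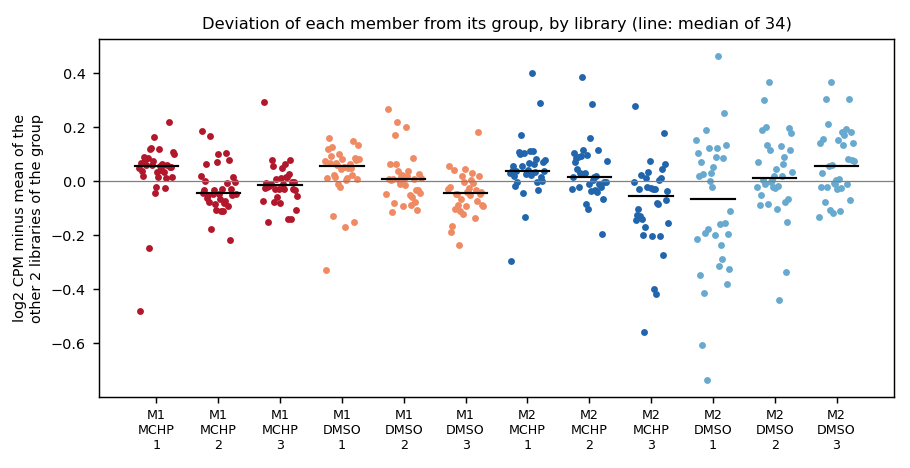
Deviation of each of the 34 genes (points) from its group, as log2 CPM minus the average of its 2 companion libraries (vertical axis), for each of the 12 libraries (horizontal axis), with the median as a line. The points of M2 DMSO replicate 1 reach from -0.74 to 0.47 and are spread more widely than those of any other library.

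Levels between genes were compared as TPM (counts divided by gene model length and scaled to the same sum in each library). CEBPB was the most abundant of the 34, with a median of 1239 TPM over the 12 libraries (803 to 1323). ATF4 followed with 755 TPM (664 to 776), then DDIT4 with 545 TPM (285 to 757), MTHFD2 with 527 TPM (398 to 622) and ATF3 with 484 TPM (429 to 618). The ranges of DDIT4, MTHFD2 and ATF3 overlap, as do those of ATF4 and DDIT4, so this order does not hold beyond their spread. It also differed between states: PSAT1, with 566 ± 6.62 TPM in M2 with MCHP and 520 ± 25.7 TPM in M2 with DMSO (SD, n = 3 each), ranked 3 of the 34 in both M2 groups. ASNS, the asparagine synthetase that is a classic ATF4 target, had the lowest median, 5.55 TPM (3.79 to 7.05). It shares 44.6% of its exon bases with AC079781.5 on the same strand, and the part of this overlap in its level was not tested. CRELD2 at 13.7 TPM (10.1 to 18.1) and the kinase gene EIF2AK3 at 15.1 TPM (11.6 to 17.8) were also low. NUPR1 had a similar median of 16.6 TPM but ran from 1.57 to 34.3 TPM, and it was the least abundant of the 34 in both M2 groups.

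MCHP in M1 macrophages raised 1 of the 34 genes, ATF3, and lowered none that passed the test. ATF3, a stress-induced transcription factor that restrains cytokine genes in macrophages, had 666, 632 and 639 CPM in M1 with MCHP, against 520, 518 and 512 CPM in M1 with DMSO. The 3 treated libraries all lay above the 3 control libraries. The mean was 646 ± 17.7 CPM in M1 with MCHP and 516 ± 4.25 CPM in M1 with DMSO (SD, n = 3 each), a 1.25-fold difference (log2 fold change 0.32, SE 0.056, edgeR quasi-likelihood test, Benjamini-Hochberg adjusted p = 0.0379). Over all genes tested, 0.0721% were called higher and 0.0131% lower, that is 11 and 2 genes. The call on ATF3 was lost without any 1 of the 6 M1 libraries (edgeR adjusted p = 0.172 to 0.312). It was also lost without M2 MCHP replicate 1 (0.0797) and with a replicate block (0.0731). The call held under the other alternatives, among them DESeq2 (adjusted p = 6.36e-05) and limma-voom (adjusted p = 0.0325). With the compared libraries alone the edgeR adjusted p was 1.68e-07. The log2 fold change stayed between 0.30 and 0.34.

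The other 33 genes had log2 fold changes of -0.10 to 0.16 after MCHP in M1, with standard errors of 0.052 to 0.17. The median over the 34 was 0.06, against 0.00 over all genes tested. An unadjusted p under 0.05 was seen in 2 of the 34 (ATF3 and ERN1) and in 817 of all 15252 genes tested. All 4 genes of eIF2 alpha phosphorylation among the 34 had positive values, as had 22 of the 34 in all. The 4 were at 0.06 for EIF2AK1 (HRI), 0.12 for EIF2AK3, 0.07 for EIF2AK4 (GCN2) and 0.11 for PPP1R15A (GADD34, the phosphatase subunit that reverses the signal), and none passed the test. ATF4 itself was at 0.05 (SE 0.060) and DDIT3 at -0.01 (SE 0.12). Among its effectors, SESN2, a sestrin that restrains mTORC1, was at 0.16, DDIT4 (REDD1, another mTORC1 inhibitor) at 0.14, CHAC1, which degrades glutathione, at 0.12 and TRIB3, a pseudokinase that feeds back on ATF4, at -0.03. The 8 metabolic enzymes lay between -0.05 and 0.09, and the 8 ER folding and degradation genes between -0.10 and 0.10. Libraries of both groups did not overlap in 7 genes that were higher in M1 with MCHP (EIF2AK4, PPP1R15A, ATF3, DDIT4, SESN2, ERN1 and EDEM1), where 8.35% of all genes were so placed. In the lower direction this held for HERPUD1 only, where 7.58% of all genes were so placed.

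MCHP in M2 macrophages lowered 1 of the 34 genes, HERPUD1, and raised none that passed the test. HERPUD1, an ER membrane protein that serves the degradation of misfolded proteins and is a known target of the unfolded protein response, had 186, 197 and 166 CPM in M2 with MCHP, against 244, 235 and 235 CPM in M2 with DMSO. Every treated library lay below every control library. The mean was 183 ± 15.4 CPM in M2 with MCHP and 238 ± 5.07 CPM in M2 with DMSO (SD, n = 3 each), a ratio of 0.769 (log2 fold change -0.38, SE 0.063, edgeR adjusted p = 0.00133). Without M2 DMSO replicate 1 it was -0.36 (adjusted p = 3.49e-05), and it passed under all 19 alternatives, with log2 fold changes of -0.43 to -0.32 and adjusted p of 1.08e-06 to 0.0416. Over all genes tested, 2.92% were called higher and 2.18% lower, that is 446 and 333 genes. Mitochondrial transcripts made up 3.64%, 3.71% and 4.28% of the counts in M2 with MCHP, against 3.23%, 3.12% and 3.10% in M2 with DMSO, and the part of this difference in the results was not tested.

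In M1 the same gene had 204, 197 and 202 CPM with MCHP, against 224, 217 and 207 CPM with DMSO, and the groups did not overlap there either. Its log2 fold change in M1 was -0.10 (SE 0.063, edgeR adjusted p = 0.986). ATF3 in M2 had 502, 517 and 461 CPM with MCHP, against 464, 424 and 438 CPM with DMSO. These groups overlapped, and the log2 fold change was 0.16 (SE 0.056, edgeR adjusted p = 0.118), or 0.20 with an adjusted p of 0.0047 without M2 DMSO replicate 1.

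The other 33 genes had log2 fold changes of -0.22 to 0.28 after MCHP in M2, and 9 of the 34 had an unadjusted p under 0.05. Of all 15252 genes tested, 2863 did. The median over the 34 was 0.05, against -0.00034 over all genes tested. Nearest to the threshold were SEL1L, the scaffold of the HRD1 ubiquitin ligase of ER-associated degradation (0.23, adjusted p = 0.0507), and PSAT1, the transaminase of serine synthesis (0.18, adjusted p = 0.0599). PSAT1 had 314, 312 and 316 CPM in M2 with MCHP, against 288, 268 and 276 CPM in M2 with DMSO, with no overlap. CEBPB had the highest value, 0.28 (SE 0.11, adjusted p = 0.155), or 0.11 without M2 DMSO replicate 1, with 630, 645 and 583 CPM in M2 with MCHP, against 377, 574 and 575 CPM in M2 with DMSO. The lowest values after HERPUD1 were -0.22 for MANF, a secreted ER stress protein, -0.18 for TRIB3 and -0.18 for DDIT3. DDIT3 had 61.1, 67.4 and 43.5 CPM in M2 with MCHP, against 71.0, 62.5 and 61.9 CPM in M2 with DMSO, and M2 MCHP replicate 3 was the lowest library in MANF as well. Without that library DDIT3 was at -0.03, MANF at -0.11 and HERPUD1, still called, at -0.32 (adjusted p = 0.00665). ATF4 was at 0.02 (SE 0.060) and XBP1, the factor made active by IRE1 splicing, at -0.11. Libraries did not overlap in 8 genes that were higher in M2 with MCHP (CEBPB, CEBPG, SESN2, PSAT1, PHGDH, ATF6, ERN1 and SEL1L), where 11.2% of all genes were so placed, and in 1 that was lower (HERPUD1), where 9.53% were.

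With M2 DMSO replicate 1 left out, 7 of the 34 genes were called in M2, beside 983 genes higher and 764 lower among all 15629 then tested. ATF3 (0.20), PSAT1 (0.21), ATF6 (0.16) and SEL1L (0.28) were then called higher, and ATF5 (-0.20) and TRIB3 (-0.28) joined HERPUD1 as lower. TRIB3 had 285, 280 and 275 CPM in M2 with MCHP, against 272, 343 and 338 CPM in M2 with DMSO. The value of replicate 1 alone placed the M2 DMSO libraries on both sides of the treated ones. DDIT4 was low in the same library, with 232, 238 and 209 CPM in M2 with MCHP, against 141, 234 and 234 CPM in M2 with DMSO. Its log2 fold change was 0.15 (adjusted p = 0.568) with all libraries and -0.05 without that one.

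**Figure D2:**
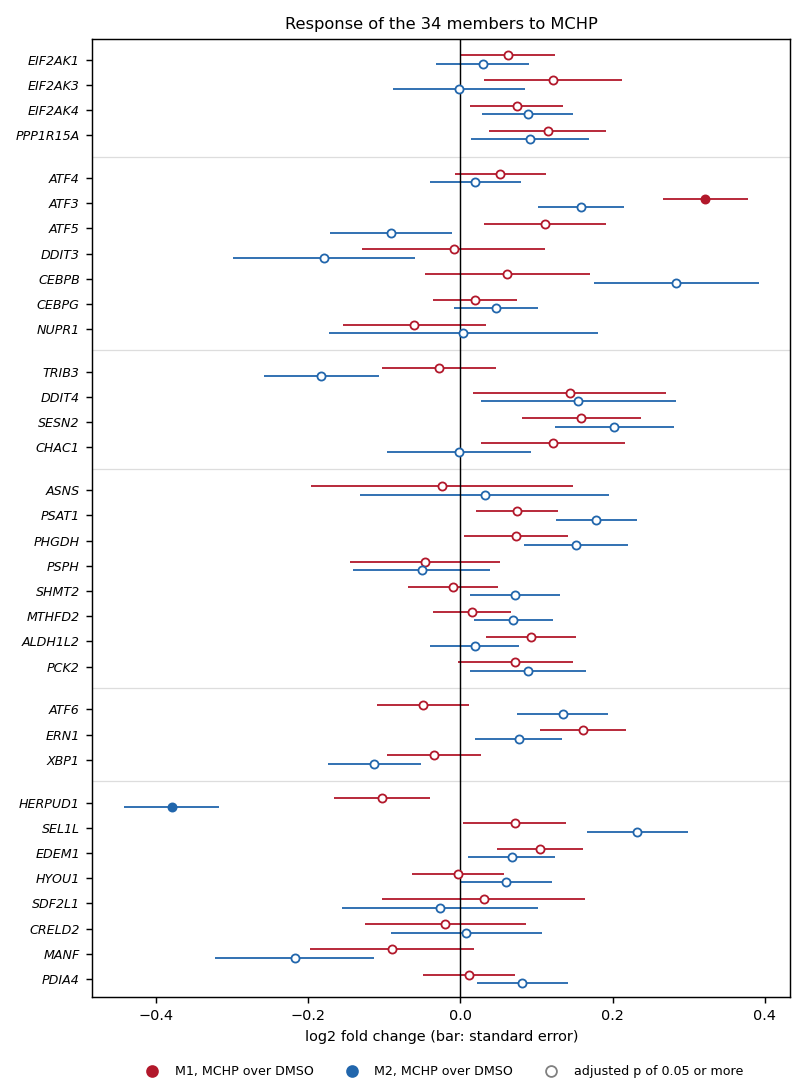
Log2 fold change of MCHP over DMSO (horizontal axis, bars give the standard error) for the 34 genes (vertical axis, grouped by role) in M1 (red) and M2 (blue), with filled points for an adjusted p under 0.05. Filled points are ATF3 in M1 at 0.32 and HERPUD1 in M2 at -0.38.

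The test of the difference between the responses (M1 minus M2) called none of the 34 genes, nor did DESeq2 or limma-voom. Of all 15252 genes tested, 1349 had an unadjusted p under 0.05, and of the 34 genes 2 did. Those were HERPUD1 at 0.28 (SE 0.089, edgeR adjusted p = 0.327) and ATF6, the ER-anchored sensor that is cleaved in the Golgi, at -0.18 (SE 0.085, adjusted p = 0.555). ATF3 was at 0.16 (SE 0.079, adjusted p = 0.575), so neither call is shown to belong to 1 polarization state. Of all genes tested, 0.059% were called higher and 0.105% lower. Without M2 DMSO replicate 1, ATF5 (0.31, adjusted p = 0.0125) and TRIB3 (0.25, adjusted p = 0.0313) passed, where 1.07% of all genes were called higher and 1.39% lower.

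Polarization moved many more of the genes than MCHP did. In MCHP, M1 exceeded M2 in 9 of the 34 and was below it in 11, where 21.9% of all genes were called higher and 22.7% lower. In DMSO the counts were 9 and 10, where 21.6% were called higher and 20.9% lower. With all libraries, 8 were higher in both contrasts and 8 were lower in both, where 17.4% of all genes were higher in both and 17% lower in both, and none of the 34 was called in opposite directions. Without M2 DMSO replicate 1 the counts were 13 and 13 in MCHP, where 25.2% of all genes were called higher and 26.1% lower, and 9 and 14 in DMSO, where 23.4% and 22.7% were. All 20 and all 19 genes called with it were among these. The contrasts share no library, but the spread of each gene was estimated over all 12 libraries, so they are not independent. The median log2 fold change over the 34 was -0.03 in MCHP and -0.11 in DMSO, against -0.00052 and -0.0043 over all genes. The counts depend on the scaling: with library size alone the MCHP contrast had 8 higher and 13 lower (17.6% and 28.4% of all genes) and the DMSO contrast 6 and 17 (15.7% and 29.7%), with the median of all genes moved to -0.09 and -0.13.

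**Figure D3:**
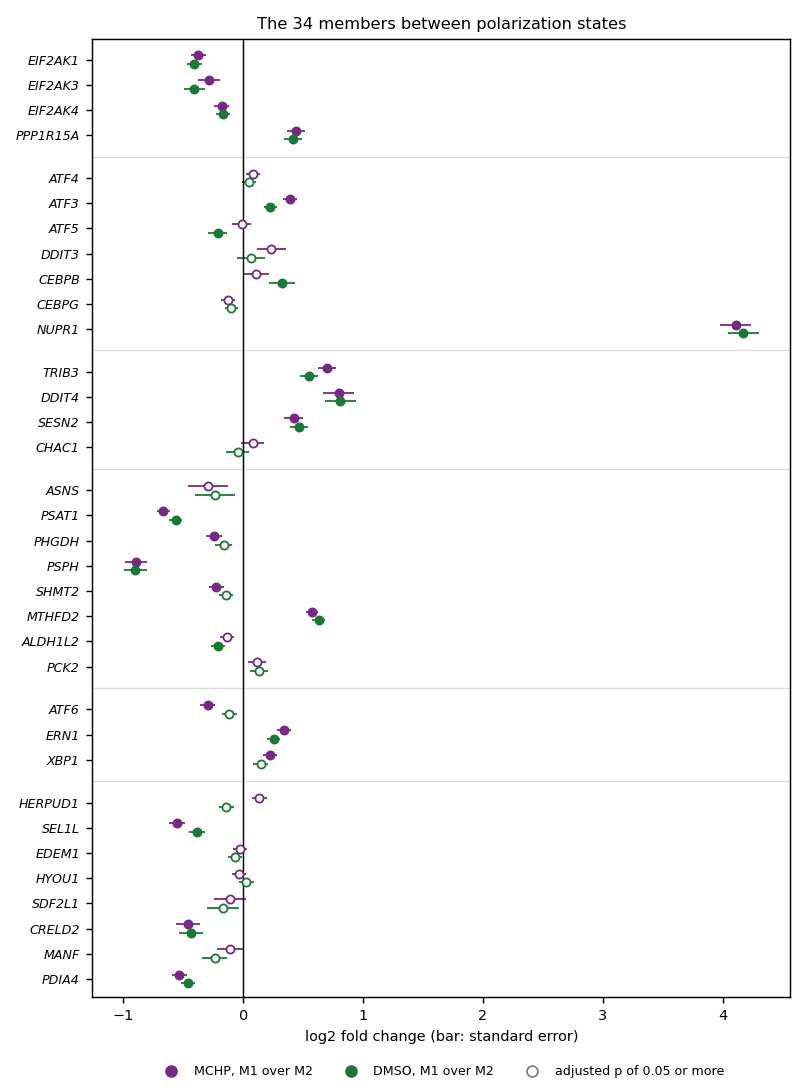
Log2 fold change of M1 over M2 (horizontal axis, bars give the standard error) for the 34 genes (vertical axis, grouped by role) with MCHP (purple) and with DMSO (green), with filled points for an adjusted p under 0.05. NUPR1 lies far from the rest, at 4.11 and 4.17, and all other genes lie between -0.90 and 0.81.

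Upstream in the pathway, the 3 kinases among the 34 genes were lower in M1 and the phosphatase subunit was higher. EIF2AK2, a further eIF2 alpha kinase outside the 34, was higher in M1 in DMSO (log2 fold change 1.24). In MCHP the log2 fold changes of M1 over M2 were -0.37 for EIF2AK1, -0.29 for EIF2AK3, -0.18 for EIF2AK4 and 0.44 for PPP1R15A, with edgeR adjusted p-values of 6.06e-05, 0.0134, 0.02 and 0.000129. In DMSO they were -0.41 (adjusted p = 2.54e-05), -0.41 (0.001), -0.17 (0.0328) and 0.42 (0.000241). In MCHP, EIF2AK4 missed the threshold without replicate 1 or 3 of either state, and EIF2AK3 without M1 replicate 2 or 3 or M2 replicate 2. Without the filter on low counts, EIF2AK4 missed it in both. In DMSO, EIF2AK4 also missed it without any 1 of the 6 libraries other than M2 DMSO replicate 1, and with the compared libraries alone (adjusted p = 0.0716). PPP1R15A had 266, 268 and 272 CPM in M1 with MCHP, against 206, 209 and 180 CPM in M2 with MCHP, with no overlap.

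Among the transcription factors, ATF4 RNA did not pass the test, at 0.08 (SE 0.060) in MCHP and 0.05 (SE 0.060) in DMSO. DDIT3 and CEBPG, a partner of ATF4, were not called in either. NUPR1, a small stress-induced chromatin-binding protein, had the largest difference of the 34. It had 49.5, 46.1 and 50.03 CPM in M1 with MCHP, against 3.36, 2.79 and 2.26 CPM in M2 with MCHP. With DMSO it had 51.0, 51.6 and 49.4 CPM in M1, against 3.47, 2.24 and 2.74 CPM in M2. The states were thus far apart with either treatment, at 17.2-fold in MCHP (log2 4.11, SE 0.13, edgeR adjusted p = 6.38e-15) and 18.0-fold in DMSO (log2 4.17, SE 0.13, adjusted p = 4.68e-15). ATF3 was 0.39 higher in M1 in MCHP (adjusted p = 1.39e-05) and 0.22 higher in DMSO (adjusted p = 0.00309), though the DMSO value was 0.10 (adjusted p = 0.188) with library size alone. CEBPB and ATF5 did not pass in MCHP, at 0.10 and -0.01, and were called in DMSO, at 0.33 (adjusted p = 0.021) and -0.21 (adjusted p = 0.0388). Without M2 DMSO replicate 1, CEBPB passed in both, at 0.10 in MCHP (adjusted p = 0.0413) and 0.15 in DMSO (adjusted p = 0.0094). The DMSO call on CEBPB was lost without M1 DMSO replicate 1 or 2, with library size alone (0.20, adjusted p = 0.118) and with the compared libraries alone (adjusted p = 0.087), and that on ATF5 held under 9 of 19 alternatives. The test of the difference between MCHP responses is also that between the DMSO and MCHP contrasts, and it called none of the 34.

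Of the ATF4 effectors, TRIB3, DDIT4 and SESN2 were higher in M1, and CHAC1 was called in neither contrast. TRIB3 had 478, 454 and 433 CPM in M1 with MCHP, against 285, 280 and 275 CPM in M2 with MCHP. In DMSO it had 493, 454 and 445 CPM in M1, against 272, 343 and 338 CPM in M2. No library of one state reached the other, and the log2 fold change was 0.70 in MCHP (SE 0.076, edgeR adjusted p = 3.82e-07) and 0.55 in DMSO (SE 0.075, adjusted p = 8.93e-06). It was 0.45 in DMSO without M2 DMSO replicate 1. DDIT4 had 416, 384 and 379 CPM in M1 with MCHP, against 232, 238 and 209 CPM in M2 with MCHP. In DMSO it had 367, 362 and 338 CPM in M1, against 141, 234 and 234 CPM in M2. The log2 fold change was 0.80 in MCHP (SE 0.13), and in DMSO it was 0.81 (SE 0.13, edgeR adjusted p = 4.41e-05) with the low M2 DMSO replicate 1 and 0.60 without it. SESN2 was at 0.42 in MCHP and at 0.46 in DMSO, or 0.35 without that library.

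The serine and one-carbon enzymes split. MTHFD2, the mitochondrial folate enzyme, was higher in M1, while PSAT1 and PSPH, the second and last enzymes of serine synthesis, were lower. MTHFD2 had 808, 776 and 775 CPM in M1 with MCHP, against 534, 529 and 520 CPM in M2 with MCHP. In DMSO it had 780, 785 and 770 CPM in M1, against 532, 498 and 478 CPM in M2. The log2 fold change was 0.58 in MCHP and 0.63 in DMSO (SE 0.052, edgeR adjusted p = 9.46e-09), and the groups did not overlap. PSAT1 had 199, 189 and 205 CPM in M1 with MCHP, against 314, 312 and 316 CPM in M2 with MCHP. In DMSO it had 190, 188 and 185 CPM in M1, against 288, 268 and 276 CPM in M2. It was lower in every M1 library, with a log2 fold change of -0.67 in MCHP and -0.56 in DMSO (SE 0.054, edgeR adjusted p = 7.13e-08). PSPH had 25.7, 25.9 and 23.4 CPM in M1 with MCHP, against 45.8, 46.2 and 47.5 CPM in M2 with MCHP. In DMSO it had 27.7, 24.9 and 24.9 CPM in M1, against 53.9, 41.0 and 49.7 CPM in M2. The ratio of M1 to M2 was 0.538 in MCHP and 0.536 in DMSO (log2 -0.90, SE 0.094, edgeR adjusted p = 2.51e-07), and the groups did not overlap.

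PHGDH, the first enzyme of serine synthesis, was at -0.24 in MCHP (adjusted p = 0.00707, or 0.0517 without M1 MCHP replicate 3) and -0.16 in DMSO (adjusted p = 0.0618). SHMT2, which makes mitochondrial glycine from serine, was at -0.22 in MCHP (adjusted p = 0.00471) and -0.14 in DMSO (adjusted p = 0.0609). Without M2 DMSO replicate 1 both passed in DMSO too, at -0.24 and -0.21. ALDH1L2, a mitochondrial folate dehydrogenase, was not called in MCHP at -0.14 and was called in DMSO at -0.21. ASNS and the mitochondrial phosphoenolpyruvate carboxykinase gene PCK2 were called in neither.

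**Figure D4:**
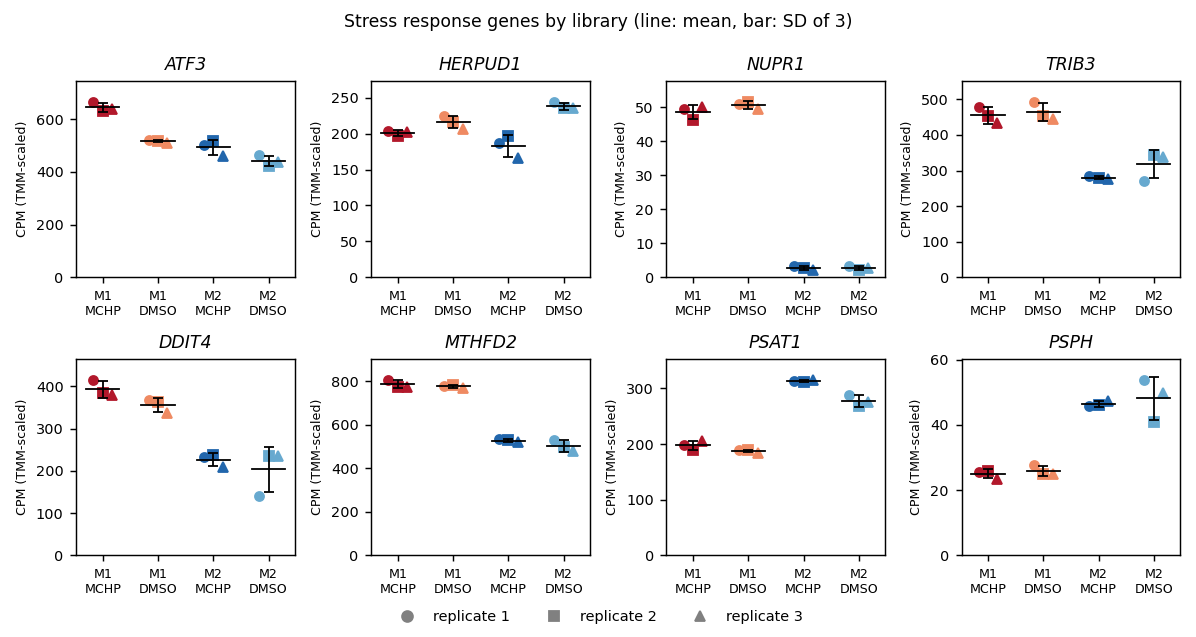
CPM after TMM scaling (vertical axes, from 0) in the 4 groups (horizontal axes) for 8 of the genes described by library, with 1 point per library, the mean as a line and the SD of 3 as a bar. ATF3 is highest in M1 with MCHP, HERPUD1 is lowest in M2 with MCHP, and the other 6 separate M1 from M2, with M2 DMSO replicate 1 low in DDIT4 and TRIB3.

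The ER arm was also divided. Of the sensors and their factor, ERN1 was higher in M1 in MCHP (0.34) and in DMSO (0.25, adjusted p = 0.0013). In MCHP, XBP1 was also higher (0.22, adjusted p = 0.0064) and ATF6 lower (-0.30, adjusted p = 0.00051), while neither passed in DMSO (0.15 and -0.11). With library size alone, XBP1 was not called in MCHP (adjusted p = 0.0696), nor ERN1 in DMSO (adjusted p = 0.0771). Of the 8 folding and degradation genes, 3 were lower in M1 in both contrasts and none was higher. Over all genes tested, 17% were lower in both and 17.4% higher in both. The 3 genes were SEL1L (-0.55 in MCHP and -0.39 in DMSO), CRELD2, an ER protein induced by ER stress (-0.46 and -0.43), and the disulphide isomerase gene PDIA4 (-0.53 and -0.46). The other 5, HERPUD1, EDEM1, HYOU1, SDF2L1 and MANF, were called in neither. With the compared libraries alone, HERPUD1 was at 0.13 in MCHP (edgeR adjusted p = 0.0473) and at -0.15 in DMSO (adjusted p = 0.0958). HYOU1, an ER chaperone with ERSE-II matches, was at -0.04 in MCHP and 0.03 in DMSO, and SDF2L1, a chaperone cofactor with one, was at -0.11 and -0.17.

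The rest of both pathways was followed in 8 lists. After MCHP in M1, none of their genes was called by edgeR, DESeq2 or limma-voom. Between 0 and 2 in each list had an unadjusted p under 0.05. Of all 15252 genes tested, 817 had one in M1 and 2863 in M2. After MCHP in M2, 0 of 23 ER chaperones and folding enzymes were called by edgeR, DESeq2 or limma-voom, and 3 had an unadjusted p under 0.05. Of 11 amino acid transporters 0 were called by edgeR and 1 each by DESeq2 and limma-voom, and 4 had an unadjusted p under 0.05. HSPA5, encoding the chaperone BiP, had 1088 ± 35.5 CPM in M2 with MCHP and 1154 ± 61.1 CPM in M2 with DMSO (SD, n = 3 each; log2 fold change -0.08, adjusted p = 0.407) and was named after its values were seen. Of all genes tested in M2, 2.92% were called higher and 2.18% lower. WFS1, an ER membrane protein (0.45), and PPP1R15B, the constitutive counterpart of GADD34 (0.24), were called higher as 2 of 20 stress transducers. GCN1, which activates GCN2, was called higher (0.52, adjusted p = 0.000887) as 1 of 13 in the eIF2B list, IARS (0.27) and EPRS (0.20) as 2 of 18 aminoacyl-tRNA synthetases, and methionine synthase, MTR (0.26), as 1 of 16 one-carbon enzymes.

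Of 27 other ATF4 and CHOP targets, 5 were higher in M2 with MCHP and 1 was lower, beside 2.92% and 2.18% of all genes. CEBPA, the gene of C/EBP alpha, a regulator of myeloid differentiation, had the largest change, with 140 ± 1.66 CPM in M2 with MCHP and 88.6 ± 28 CPM in M2 with DMSO (SD, n = 3 each; 0.66, adjusted p = 0.0117). It was at 0.42 without M2 DMSO replicate 1. VLDLR, a lipoprotein receptor, was at 0.35 (adjusted p = 0.0012). Without that library, where 6.29% of all genes were called higher and 4.89% lower, the counts of higher and lower genes in M2 were 2 and 0 of 23 chaperones, 4 and 0 of 26 degradation genes, 4 and 2 of 20 transducers, 1 and 1 of 13 in the eIF2B list, 2 and 0 of 11 transporters, 6 and 0 of 18 synthetases, 1 and 0 of 16 one-carbon enzymes, and 6 and 4 of 27 targets. The difference between the responses called none of the genes in any list by edgeR, DESeq2 or limma-voom. An unadjusted p under 0.05 was seen in 0 to 7 a list, beside 1349 of all 15252 genes. Without that library the difference called 0 or 1 in each list, except for 4 of the 27 targets. Of all genes, 1.07% were then called higher and 1.39% lower.

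Between M1 and M2 in MCHP the counts of higher and lower genes were 3 and 12 of 23 ER chaperones, 5 and 5 of 26 degradation and translocation genes, 6 and 5 of 20 transducers, 1 and 4 of 13 in the eIF2B list, 2 and 3 of 11 transporters, 2 and 8 of 18 synthetases, 2 and 8 of 16 one-carbon enzymes, and 6 and 13 of 27 targets. The shares over all genes were 21.9% and 22.7% in MCHP, and 21.6% and 20.9% in DMSO. In DMSO, 3 ER chaperones were higher and 8 lower of 23, led by SIL1, a nucleotide exchange factor of BiP (-0.90), and the chaperone calreticulin, CALR (-0.48). In the degradation and translocation list 6 were higher and 3 lower of 26, led by EDEM2 (1.3) and SSR3 (-0.35). Among the transducers 5 were higher and 2 lower of 20, with WFS1 at -1.34 and EIF2AK2 (PKR, the double-stranded RNA kinase and a known interferon-induced gene) at 1.24. The eIF2B list had 1 higher and 4 lower of 13, led by IMPACT (-0.69) and GCN1 (-0.49). The transporters had 3 in each direction of 11, with SLC38A2 at 0.80 and SLC7A5 at -0.56. The synthetases had 2 higher and 7 lower of 18, and the higher ones were WARS, another known interferon-induced gene (2.32), and KARS (1.09). One-carbon enzymes had 3 higher and 5 lower of 16, led by GCSH (-2.39 in DMSO, and -0.74 in MCHP, where it did not pass, at under 3 CPM in the mean of each group) and CBS (1.05). The other targets had 5 higher and 10 lower of 27, led by WARS and PMAIP1 (1.45). With library size alone, where 15.7% of all genes were called higher and 29.7% lower, the DMSO counts of higher and lower genes were, in the same order of lists, 0 and 13, 2 and 11, 4 and 8, 0 and 9, 2 and 6, 2 and 10, 3 and 10, and 4 and 13.

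Some of the values carry a limit of identity. In GENCODE release 29, 13 of the 34 genes share exon bases with another gene, and the strand setting of the counts is not given in the sources used here. DDIT3 shares 27.2% of its exon bases with MARS on the opposite strand, which had 65057 counts over the 12 libraries, against 12101 for DDIT3. ASNS shares 44.6% with AC079781.5 on the same strand, which had 425 counts, against 1192 for ASNS. ATF5 shares 21.2% with NUP62 on the opposite strand. DDIT4 shares 41.2% with DDIT4-AS1 (0 counts) and MTHFD2 shares 27.2% with SLC4A5 (310 counts), both on the opposite strand. PSPH has a pseudogene, PSPHP1, with a count equal to 6.09% of its own.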

How the data were processed

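The deposited table holds raw read counts per gene for the 12 libraries, whole numbers that the authors did not normalize, with gene model lengths, per the file headers. Libraries were made from poly-T selected RNA with random priming, per the labels' protocols. Per the submitters' processing notes, the build was hg38, and the tools, given without roles, were DESeq2 1.20.0, featureCounts 1.5.0-p3, StringTie 1.3.3b, HISAT2 2.0.5 and fastp. The strand setting is not given in the sources used here.

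The counts were analysed with edgeR 4.0.16 (R 4.3.3): low genes were removed by filterByExpr, TMM factors scaled the libraries, and a model was fitted with 1 mean per group over all 12 libraries (8 residual degrees of freedom). The 5 contrasts were tested with the two-sided quasi-likelihood F-test, Benjamini-Hochberg adjusted over 15252 genes, and "called" means an adjusted p under 0.05. A standard error is the absolute log2 fold change over the square root of F. Libraries held 14352202 to 16871233 counts, and ASNS had the fewest of the 34 genes, with 1192 counts over the 12 libraries. Start and end of all 34 genes equal GENCODE release 29. No 2 libraries of a group agreed within sampling noise (chi-square per degree of freedom of at least 2.24), and p-values measure the spread between these libraries.

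The genes, the lists and the rule for genes given in full (those called after MCHP, and the 6 largest between M1 and M2 in DMSO, with 2 per list and contrast) were chosen with earlier results of these data known. CEBPB and PPP1R15A, PSAT1 in M2 after MCHP, and the genes set out for M2 DMSO replicate 1 were given by library after their values were seen. Alternatives were DESeq2 size factors, library size alone, no filter, DESeq2 1.42.0, limma-voom (limma 3.58.1), a replicate block, the compared libraries alone and each library left out. Over all genes tested, same-numbered libraries deviated with correlations of -0.0478 to 0.0374, and numbers were not taken as pairs. The steps were tested on simulated counts. One result of the pathway lists is not reported here.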

Additional observations from a re-analysis of the deposited data

How the results depend on the processing

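After MCHP in M1, where 1 of the 34 genes was called, the number was 0 with a replicate block, 4 (ATF3, DDIT4, SESN2 and ERN1) with the compared libraries alone, and 0 to 2 with 1 library left out, the 2 being ATF3 and SESN2 without M2 DMSO replicate 1. After MCHP in M2, where 1 was called, it was 3 without the filter on low counts (with CEBPB and SEL1L), 3 by DESeq2 and 3 by limma-voom (each with PSAT1 and SEL1L), 2 with a replicate block (with SEL1L) and 1 to 7 with 1 library left out, the 7 being without M2 DMSO replicate 1. The difference of the responses called 0, and 0 to 2 with 1 library left out. Between M1 and M2 the counts were 17 to 26 in MCHP and 16 to 23 in DMSO over all alternatives. Library size alone shifted the split toward lower calls as given above. In MCHP the 17 were without M1 MCHP replicate 3, where 18.9% of all genes were called higher and 19.1% lower. The 26 were without M2 DMSO replicate 1, where 25.2% and 26.1% were. In DMSO, 16 were called with the compared libraries alone, where 19.0% and 18.9% of all genes were. There were 23 without M2 DMSO replicate 1, where 23.4% and 22.7% were. No called gene changed direction under any alternative. Of 779 values for called genes under alternatives, 738 stayed past the threshold and 41 did not. The replicate numbers are not a known pairing, and over all genes tested same-numbered libraries did not deviate together. Over the 34 genes, the median deviation of replicate 1 was 0.058 in M1 with MCHP and 0.056 in M1 with DMSO. In M2 it was 0.039 with MCHP and -0.066 with DMSO. The block moved calls only as given here and for ATF5 between M1 and M2 in DMSO (edgeR adjusted p = 0.0501). Over all genes, higher and lower calls after MCHP in M1 were 149 and 146 with the compared libraries alone, 43 and 33 without the filter, 28 and 22 by DESeq2, 5 and 0 with the block, and 79 and 80 without M2 DMSO replicate 1. In M2 they were 104 and 79 with the compared libraries alone, 624 and 469 without the filter, and 562 and 434 by DESeq2. They were 478 and 314 by limma-voom, 401 and 291 with the block, and 983 and 764 without that library. For the difference they were 77 and 93 without the filter, 50 and 46 by DESeq2, and 168 and 217 without that library. The cause of these changes was not tested. With 3 libraries a group, the genes not called after MCHP had median standard errors of 0.0688 in M1 and 0.0682 in M2 on the log2 scale, which limits the differences that could be seen.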
